A study of Mus musculus with 6 samples.

Results

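In RNA of cartilaginous tissue of the knee joint, 9 genes used as markers of osteoblasts and osteocytes were followed: *Bglap*, *Bglap2*, *Sp7*, *Dmp1*, *Phex*, *Ifitm5*, *Mepe*, *Sost* and *Fam20c*. They are the rows with these names among the 55487 genes of the deposited count table, and all 9 were among the 17175 genes with enough counts to be tested. Poly(A) RNA came from the cartilaginous tissue of knee joints of mice at postnatal day 6 (P6), in 3 libraries of *Hbb*-cKO mice, labelled as a conditional knockout of *Hbb* in chondrocytes, and in 3 libraries of wildtype (WT) mice. In the study the floxed *Hbb* allele was made on a C57BL/6J background with a vector aimed at *Hbb-bt* and *Hbb-bs*, which encode β-globin in the adult, and was deleted with *Col2a1-Cre*ERT2, which tamoxifen activates in chondrocytes, or with *Prx1-Cre*, which acts in limb mesenchyme and its descendants. The study gives the name *Hbb*-cKO to mice with both *Hbb* alleles floxed and *Col2a1-Cre*ERT2, while the labels of these libraries name no Cre line. Which of the Cre lines, which tamoxifen dose and which alleles of the WT mice stand behind these 6 libraries, and how many mice each library pools, are not stated in the sources used here. P-values therefore measure the spread between these libraries. Levels are given as CPM, counts per 1000000 of the library size after scaling by TMM (a factor that evens out composition between libraries).

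Osteoblasts lay down the collagen matrix of bone and mineralize it, and some of them become buried as osteocytes. In a neonatal knee they lie where the growth plate meets the forming trabecular bone and in the collar of bone around the shaft, next to hypertrophic chondrocytes. *Sp7* (osterix) is the zinc finger transcription factor needed for osteoblast formation, *Ifitm5* encodes a small membrane protein of osteoblasts that are starting to mineralize, and *Bglap* and *Bglap2* encode osteocalcin, a carboxylated protein that mature osteoblasts release into matrix and blood. *Dmp1* and *Mepe* encode acidic phosphoproteins of the mineralizing matrix, *Fam20c* the Golgi kinase that phosphorylates such proteins, and *Phex* a membrane peptidase whose loss in mice raises the phosphate-wasting hormone FGF23. *Sost* encodes sclerostin, which osteocytes release and which blocks Wnt signalling at LRP5 and LRP6.

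The copies of the osteocalcin gene are shown because their likeness sets how far their counts can be told apart. *Bglap* (chromosome 3, 88383501 to 88384464 on the minus strand, GRCm38) and *Bglap2* (88377736 to 88378699, the same strand) each have 4 exons and a coding sequence of 285 bases. The sequences below are from GENCODE M21, 5′ to 3′, and capitals mark the 4 bases at which they differ (98.6% identity).
Bglap: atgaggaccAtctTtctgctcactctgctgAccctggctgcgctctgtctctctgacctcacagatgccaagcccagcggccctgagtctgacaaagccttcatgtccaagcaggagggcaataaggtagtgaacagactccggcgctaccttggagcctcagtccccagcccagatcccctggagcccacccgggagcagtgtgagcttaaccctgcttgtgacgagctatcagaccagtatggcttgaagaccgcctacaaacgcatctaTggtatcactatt
Bglap2: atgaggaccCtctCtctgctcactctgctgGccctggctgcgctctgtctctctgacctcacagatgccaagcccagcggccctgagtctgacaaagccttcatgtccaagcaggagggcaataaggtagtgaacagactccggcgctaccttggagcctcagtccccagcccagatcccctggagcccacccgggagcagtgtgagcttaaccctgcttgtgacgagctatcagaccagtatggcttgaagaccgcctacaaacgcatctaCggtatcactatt
The longest stretch without a difference is 241 bases. Over whole transcripts, 74.7% of the 391 windows of 50 bases in *Bglap* also occur in *Bglap2*, and 69.2% of the 422 windows of *Bglap2* occur in *Bglap*. The split of counts between them is thus uncertain, and their sum is given beside them. The more distant copy *Bglap3* (88368616 to 88372743) shares 20.5% of the windows of *Bglap*.

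Upstream sequences were searched for a motif of RUNX2 and are shown for *Bglap*, *Dmp1* and *Mepe* because they held it, not for how their levels varied. RUNX2, the factor that acts before *Sp7* in osteoblasts, recognizes the core motif ACCACA, which reads TGTGGT on the other strand. This core was searched on both strands in the 250 bases before each annotated start in RefSeq (GRCm38.p6), where 7 of the 9 genes had an entry and *Bglap2* and *Sp7* had none. It occurred in 3 of their 8 promoters, against 14.0% of all 32851 promoters in that table. Capitals mark the core in each sequence, 5′ to 3′ on the strand of the gene.
Bglap, chr3:88384467-88384716, minus strand: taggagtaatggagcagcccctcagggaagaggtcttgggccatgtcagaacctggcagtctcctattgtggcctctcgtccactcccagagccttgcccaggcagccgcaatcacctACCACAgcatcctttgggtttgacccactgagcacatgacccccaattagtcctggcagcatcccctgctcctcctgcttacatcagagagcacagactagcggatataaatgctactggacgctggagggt
Dmp1, chr5:104202367-104202616, plus strand: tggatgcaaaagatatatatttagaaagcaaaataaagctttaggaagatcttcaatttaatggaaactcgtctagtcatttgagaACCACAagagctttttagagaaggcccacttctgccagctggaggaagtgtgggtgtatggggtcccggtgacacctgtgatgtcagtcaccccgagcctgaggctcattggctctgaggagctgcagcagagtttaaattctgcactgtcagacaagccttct
Mepe, chr5:104325079-104325328, plus strand: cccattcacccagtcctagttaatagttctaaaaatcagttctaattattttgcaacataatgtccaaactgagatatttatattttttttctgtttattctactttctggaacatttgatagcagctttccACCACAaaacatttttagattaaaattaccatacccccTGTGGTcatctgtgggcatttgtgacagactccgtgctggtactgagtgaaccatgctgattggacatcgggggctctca
The core began at -132 in *Bglap*, at -164 in *Dmp1* and at -118 and, in the reverse orientation, -80 in *Mepe*. A match of letters is no evidence of binding, and the other annotated start of *Dmp1* and the starts of *Fam20c*, *Ifitm5*, *Sost* and *Phex* held none. *Bglap* and *Mepe*, both with the motif, ordered the libraries alike, and *Phex*, without it, ordered them much as *Dmp1* did. Any part of the motif in these orders was not tested.

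Total counts ran from 17405688 to 20969914 in *Hbb*-cKO and from 16544800 to 17475496 in WT libraries. The sum of *Hbb-bs* and *Hbb-bt* was 4195, 5444 and 5014 CPM in *Hbb*-cKO, below each WT library at 16810, 12450 and 6912 CPM. *Xist*, a transcript of the inactive X chromosome of females, was at 287, 0.301 and 381 CPM in *Hbb*-cKO and at 625, 531 and 157 CPM in WT, and 4 Y-linked genes summed to 57.4, 146 and 58.6 CPM in *Hbb*-cKO and to 0, 0 and 122 CPM in WT, so that the libraries differed in sex-linked transcripts. The tissue carried chondrocyte RNA, with *Col2a1* at 25990 ± 7880 CPM in *Hbb*-cKO, against 25890 ± 2031 CPM in WT (mean ± s.e.m., n = 3 libraries here and throughout), and RNA of skeletal muscle, osteoclasts and blood cells. No defining marker in the lists of these cell types was at 0 in all 6 libraries.

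All 9 genes were detected in all 6 libraries, and their levels spanned a wide range. Per kilobase of exon, *Ifitm5* had the highest level over the 6 libraries, with a mean of 42.7 CPM per kb and a range of 30.8 to 61.6. *Sp7* (30.2, range 26.0 to 38.9), *Dmp1* (29.2, range 14.2 to 48.3), *Bglap* (25.4, range 7.62 to 48.7) and *Bglap2* (17.4, range 5.32 to 31.5 CPM per kb) followed. Each of these overlapped its neighbour in the order, although *Ifitm5* was above *Sp7* in each of the 6 libraries. *Fam20c* had 11.8 CPM per kb (range 9.40 to 13.6), within the range of *Bglap2* and above every value of *Phex* (3.96, range 2.21 to 5.95). *Sost*, the osteocyte gene, was at 2.28 CPM per kb (range 1.68 to 3.69), overlapping *Phex*, and every value of *Sost* was above those of *Mepe* (0.507, range 0.149 to 1.30). For scale, the bone sialoprotein gene *Ibsp* was at 272 CPM per kb and osteopontin, *Spp1*, at 271 CPM per kb, both of which hypertrophic chondrocytes also express. The order depends on the length used: with the longest transcript of each gene in place of all its exons, 4 of the 9 genes kept their place.

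**Figure D1:**
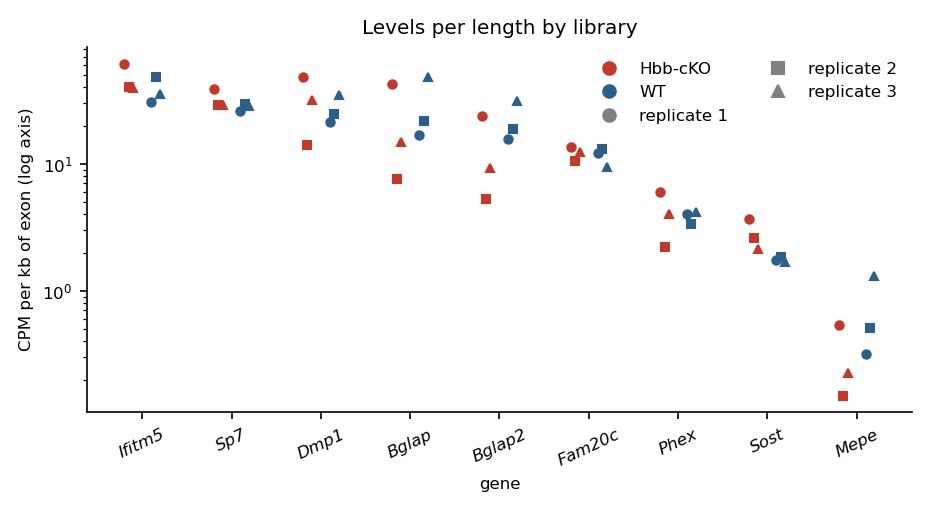
Level of each of the 9 genes in each library, as CPM per kilobase of exon on a log axis, with *Hbb*-cKO libraries in red to the left of WT libraries in blue and the replicate given by the shape of the point. *Ifitm5*, *Sp7*, *Dmp1*, *Bglap* and *Bglap2* overlap at the top, and *Mepe* lies lowest, between 0.149 and 1.30 CPM per kb.

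Osteocalcin transcripts varied widely between libraries of the same genotype. *Bglap* was at 26.1, 4.71 and 9.20 CPM in *Hbb*-cKO and at 10.4, 13.5 and 30.1 CPM in WT libraries. *Bglap2* was at 11.3, 2.51 and 4.34 CPM in *Hbb*-cKO and at 7.37, 8.88 and 14.8 CPM in WT libraries. For both copies WT replicate 3 was the highest library and *Hbb*-cKO replicate 1 the next, *Hbb*-cKO replicate 2 was the lowest, and the groups overlapped. The mean of *Bglap* was 13.4 ± 6.53 CPM in *Hbb*-cKO, against 18.0 ± 6.12 CPM in WT (log2 fold change -0.44, standard error 0.69, adjusted p = 0.889). That of *Bglap2* was 6.05 ± 2.68 CPM in *Hbb*-cKO, against 10.4 ± 2.28 CPM in WT (log2 fold change -0.78, standard error 0.56, adjusted p = 0.695), where p is from edgeR's quasi-likelihood test and adjusted across all 17175 genes. Neither passed 0.05, a threshold that 18 of all genes tested passed (0.105%), and without WT replicate 3 the log2 fold change of *Bglap* was 0.15. That of *Bglap2* was -1.59 without *Hbb*-cKO replicate 1, -0.41 without *Hbb*-cKO replicate 2 and -0.43 without WT replicate 3.

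Counting the copies together gave the same picture. *Bglap*, *Bglap2* and *Bglap3* summed to 37.5, 7.22 and 13.9 CPM in *Hbb*-cKO and to 17.8, 22.5 and 44.9 CPM in WT libraries, and the log2 fold change was -0.54 (standard error 0.65, adjusted p = 0.843 in edgeR). Without *Hbb*-cKO replicate 1 this was -1.42, and without WT replicate 3 it was -0.05. *Bglap3* contributed little, with 1, 0 and 7 counts in *Hbb*-cKO and 0, 2 and 0 counts in WT libraries. *Bglap* made up 69.7%, 65.3% and 66.3% of the summed counts in *Hbb*-cKO libraries, with Wilson 95% intervals of 66.1 to 73.1, 57.2 to 72.6 and 60.7 to 71.5, which cover counting error only. In WT libraries it made up 58.6%, 60.0% and 67.0%, with intervals of 52.9 to 64.0, 54.9 to 64.9 and 63.6 to 70.2. The shares overlapped, at 67.1 ± 1.33% in *Hbb*-cKO and 61.9 ± 2.60% in WT, a difference of 5.24 percentage points (standard error 2.93, two-sided exact permutation p = 0.3, where 0.1 is the smallest that 3 libraries against 3 allow).

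Vitamin K-dependent carboxylation lets osteocalcin bind mineral. A short list of genes for this and for other steps of osteocalcin, the latter with *Furin* and *Gprc6a*, had 6 of 7 tested. With edgeR or DESeq2 none of them passed 0.05, while 1 reached an unadjusted p under 0.05, beside 10.1% of all genes. This was *Calu*, which encodes calumenin, an inhibitor of the carboxylase, at 403, 551 and 780 CPM in *Hbb*-cKO and 359, 185 and 337 CPM in WT libraries (log2 fold change 0.98, standard error 0.32, adjusted p = 0.358). *Ggcx*, the carboxylase itself, was at 41.3, 52.5 and 50.4 CPM in *Hbb*-cKO and 40.5, 39.3 and 39.1 CPM in WT libraries, also without overlap (log2 fold change 0.28, adjusted p = 0.495). The osteocalcin receptor candidate *Gprc6a* had no count in any library. The median log2 fold change of the list was 0.06, beside -0.01 over all genes tested. In the list, 2 of the 6 tested genes had *Hbb*-cKO libraries entirely above WT libraries, beside 8.70% of all genes tested.

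*Sp7* was among the steadiest of the 9 genes. It lies on chromosome 15 (102356606 to 102367182, minus strand) and had 1478 to 2328 counts per library. Its level was 132, 99.0 and 98.9 CPM in *Hbb*-cKO and 88.5, 101 and 96.6 CPM in WT libraries, so that *Hbb*-cKO replicate 1 was apart and the others lay between 88.5 and 101 CPM. Means were 110 ± 11.1 in *Hbb*-cKO and 95.5 ± 3.75 CPM in WT (log2 fold change 0.20, standard error 0.14, 95% interval -0.13 to 0.54, adjusted p = 0.681), and without *Hbb*-cKO replicate 1 the log2 fold change was 0.06.

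*Runx2*, which acts upstream of *Sp7* and also in hypertrophic chondrocytes, was at 38.3, 38.8 and 39.2 CPM in *Hbb*-cKO and 35.3, 10.9 and 33.9 CPM in WT libraries (log2 fold change 0.54, adjusted p = 0.713). The ratio of *Sp7* to *Runx2* counts was 3.45, 2.55 and 2.53 in *Hbb*-cKO and 2.51, 9.26 and 2.85 in WT libraries. WT replicate 2 stood apart through its low *Runx2* and not through its *Sp7*. Of 19 osteoblast transcription factors in a fixed list, 18 were tested and none passed 0.05 with edgeR or DESeq2, with a median log2 fold change of 0.06. In this list 1 gene had an unadjusted p under 0.05, beside 10.1% of all genes. This was *Zbtb16*, a zinc finger factor, at 2.1, 2.41 and 3.21 CPM in *Hbb*-cKO and 6.95, 2.43 and 30.8 CPM in WT libraries (log2 fold change -2.37, adjusted p = 0.455), where WT replicate 3 holds most of the difference. The log2 fold change of *Zbtb16* ran from -2.85 to -0.86 when each library was left out in turn. *Atf4*, the most abundant of the list and an activator of osteocalcin transcription, differed by -0.04 on the log2 scale (adjusted p = 0.954), and by 0.094 without *Hbb*-cKO replicate 3.

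*Dmp1* and *Mepe* lie on chromosome 5 in a cluster of phosphoprotein genes on the plus strand that also holds *Dspp*, *Ibsp* and *Spp1*. *Dmp1* (104202613 to 104214102, 6 exons) was at 133, 39.1 and 87.7 CPM in *Hbb*-cKO and 58.6, 68.7 and 97.0 CPM in WT libraries. The 3 *Hbb*-cKO libraries thus spanned a 3.41-fold range that enclosed all WT values. Means were 86.8 ± 27.2 in *Hbb*-cKO and 74.8 ± 11.5 CPM in WT (log2 fold change 0.21, standard error 0.44, 95% interval -0.84 to 1.27, adjusted p = 0.918), and without *Hbb*-cKO replicate 1 the log2 fold change was -0.23. *Mepe* (104325329 to 104338611, 3 exons) was near the limit of detection, with 16, 5 and 8 counts in *Hbb*-cKO and 9, 14 and 38 counts in WT libraries. This corresponds to 0.909, 0.251 and 0.378 CPM in *Hbb*-cKO and to 0.539, 0.851 and 2.19 CPM in WT libraries. The groups overlapped, WT replicate 3 was the highest, and the log2 fold change was -1.24 (standard error 0.65, 95% interval -2.75 to 0.27, adjusted p = 0.568). It was -0.46 without WT replicate 3 and -1.90 without *Hbb*-cKO replicate 1.

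The other genes of the cluster ranked the libraries in much the same way. *Ibsp*, whose sialoprotein nucleates mineral, was at 808, 263 and 533 CPM in *Hbb*-cKO and 422, 587 and 762 CPM in WT libraries. *Spp1*, whose osteopontin inhibits crystal growth and is made by osteoclasts as well, was at 560, 192 and 333 CPM in *Hbb*-cKO and 380, 424 and 787 CPM in WT libraries. *Hbb*-cKO replicate 2 was the lowest library for *Dmp1*, *Mepe*, *Ibsp* and *Spp1* alike. *Dspp*, the dentin sialophosphoprotein gene of tooth-forming cells, had 0 counts in each library, which allows up to 0.142 to 0.182 CPM (3 counts of the library, counting error only).

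Among 20 tested genes of a list of 22 bone matrix and mineralization genes, none passed 0.05 with edgeR or DESeq2. The median log2 fold change was -0.01, and 2 genes reached an unadjusted p under 0.05, beside 10.1% of all genes. Both of these, *Smpd3* and *Col1a1*, were higher in each *Hbb*-cKO library than in any WT library. *Smpd3*, a neutral sphingomyelinase needed for mineralization in mice, was at 201.1, 351 and 242 CPM in *Hbb*-cKO and 173, 145 and 163 CPM in WT libraries (log2 fold change 0.72, standard error 0.21, adjusted p = 0.292). *Col1a1*, the main chain of type I collagen, was at 37580, 24500 and 32980 CPM in *Hbb*-cKO and 21440, 23550 and 20590 CPM in WT libraries (log2 fold change 0.54, standard error 0.21, adjusted p = 0.434). *Col1a2*, the other chain, was at 29550, 22220 and 25150 CPM in *Hbb*-cKO and 18870, 19490 and 20710 CPM in WT libraries (log2 fold change 0.38, adjusted p = 0.529). *Hbb*-cKO replicate 2 was the highest library for *Smpd3* and the lowest *Hbb*-cKO library for *Col1a1*. In all, 6 of the 20 had *Hbb*-cKO libraries entirely above WT libraries and none had them below, where such a pattern in the higher direction held for 8.70% of all genes tested. Type I collagen is also made by tendon, perichondrium and skin cells.

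*Fam20c*, the kinase of secreted phosphoproteins, varied less between libraries than *Dmp1*. It lies on chromosome 5 (138754514 to 138810077, plus strand, up to 11 exons) and was at 89.7, 69.1 and 81.4 CPM in *Hbb*-cKO and 79.7, 85.7 and 62.0 CPM in WT libraries. Its highest library was 1.45-fold above its lowest, against 3.41-fold for *Dmp1*. Means were 80.1 ± 5.99 in *Hbb*-cKO and 75.8 ± 7.12 CPM in WT (log2 fold change 0.08, standard error 0.16, 95% interval -0.28 to 0.44, adjusted p = 0.915). Without *Hbb*-cKO replicate 1 the log2 fold change was -0.0038 and without WT replicate 3 it was -0.05.

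*Phex* spans chromosome X from 157162075 to 157415312 on the minus strand, in up to 22 exons. Its level was 37.5, 13.9 and 25.4 CPM in *Hbb*-cKO and 25.3, 21.2 and 26.2 CPM in WT libraries, so that the WT libraries lay close together and *Hbb*-cKO replicates 1 and 2 lay on either side of them. Means were 25.6 ± 6.80 in *Hbb*-cKO and 24.2 ± 1.55 CPM in WT (log2 fold change 0.08, standard error 0.33, 95% interval -0.70 to 0.85, adjusted p = 0.965). The log2 fold change was -0.30 without *Hbb*-cKO replicate 1. *Hbb*-cKO replicate 2, the lowest in *Phex*, was also the library with the lowest *Xist* (0.301 CPM) and the highest Y-linked sum (146 CPM), and the part of sex was not tested.

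**Figure D2:**
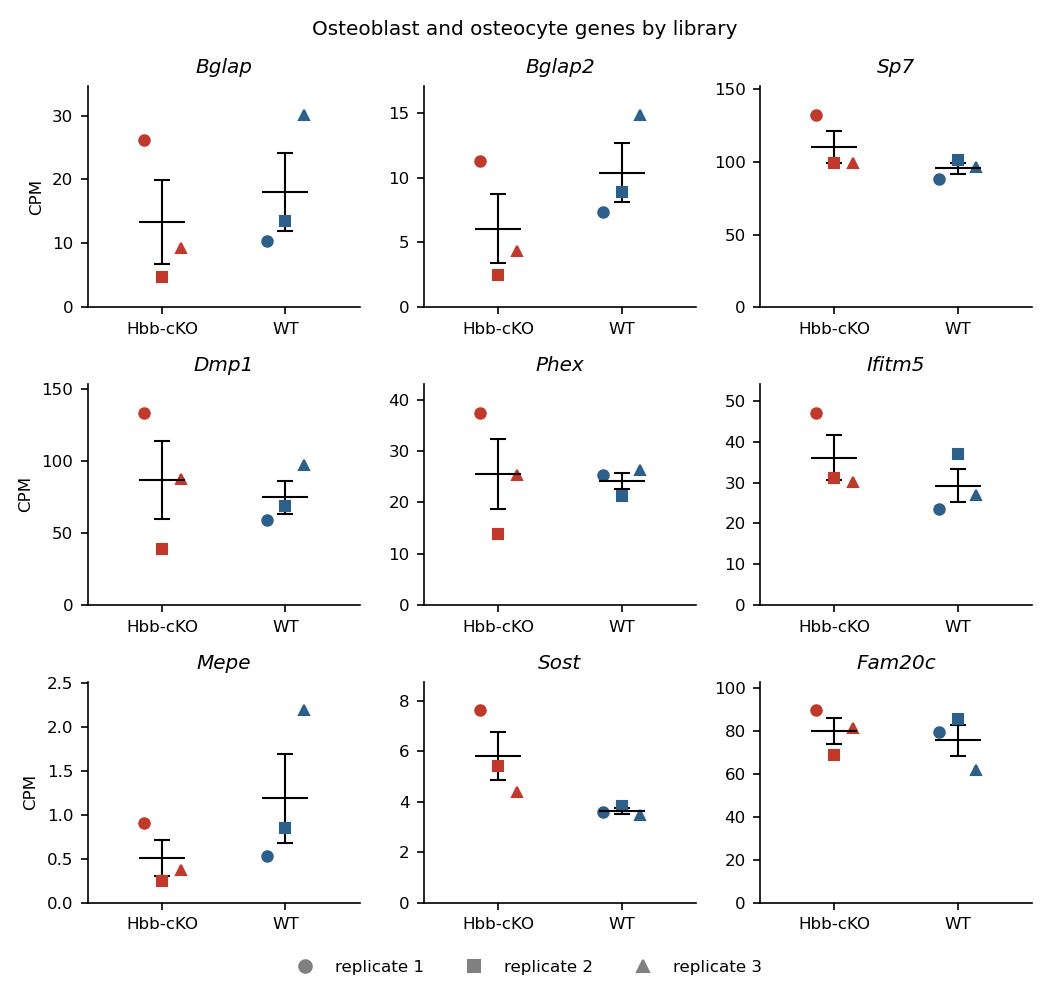
CPM of the 9 genes in each library, with *Hbb*-cKO in red on the left and WT in blue on the right of each panel, the replicate given by the shape of the point, and the horizontal line and bars giving the mean ± s.e.m. of 3 libraries. *Sost* is the only gene whose groups do not overlap (4.39 to 7.62 CPM in *Hbb*-cKO and 3.46 to 3.83 CPM in WT), and *Hbb*-cKO replicate 1 is the highest library for 6 of the 9 genes.

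*Ifitm5* lies on chromosome 7 (140948958 to 140950291, minus strand, 2 exons). Its level was 47.1, 31.1 and 30.1 CPM in *Hbb*-cKO and 23.6, 37.0 and 27.1 CPM in WT libraries, with WT replicate 2 above *Hbb*-cKO replicates 2 and 3. Means were 36.1 ± 5.52 in *Hbb*-cKO and 29.2 ± 4.01 CPM in WT (log2 fold change 0.30, standard error 0.23, 95% interval -0.23 to 0.83, adjusted p = 0.711). The log2 fold change was 0.07 without *Hbb*-cKO replicate 1, 0.18 without WT replicate 1 and 0.52 without WT replicate 2. A predicted gene, *Gm45717*, overlaps it on the same strand (140949222 to 140955937) and covers 227 of its 765 exon bases. *Gm45717* had 0, 2847 and 5 counts in *Hbb*-cKO and 2018, 3237 and 0 counts in WT libraries, which is not the order of *Ifitm5*, and how reads in the shared bases were assigned is not stated in the sources used here. Counts of *Ifitm5* are therefore uncertain by an amount that was not tested.

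The other genes of the *Ifitm* family, which restrict viral entry, were listed with *Cd9*, *Cd81*, *Ptgfrn* and *Fkbp11*. This list gave 9 tested genes of 10, with none past 0.05 in edgeR or DESeq2 and a median log2 fold change of 0.01. Of the 9 tested, 1 had an unadjusted p under 0.05, beside 10.1% of all genes. *Ifitm1*, the only one with an unadjusted p under 0.05, was at 6.25, 4.01 and 4.72 CPM in *Hbb*-cKO and 6.83, 8.15 and 6.29 CPM in WT libraries (log2 fold change -0.51, standard error 0.22, adjusted p = 0.494). *Fkbp11*, a prolyl isomerase that binds IFITM5, was at 56.1, 58.8 and 56.9 CPM in *Hbb*-cKO and 42.0, 59.8 and 31.8 CPM in WT libraries (adjusted p = 0.606).

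*Sost* had the smallest p-value of the 9 genes. It lies on chromosome 11 (101962458 to 101967015, minus strand, 2 exons) and had 134, 108 and 93 counts in *Hbb*-cKO and 60, 63 and 60 counts in WT libraries. This is 7.62, 5.41 and 4.39 CPM in *Hbb*-cKO and 3.59, 3.83 and 3.46 CPM in WT, with every *Hbb*-cKO library above every WT library. Means were 5.81 ± 0.952 in *Hbb*-cKO and 3.63 ± 0.108 CPM in WT (log2 fold change 0.67, standard error 0.24, 95% interval 0.12 to 1.23). The unadjusted p was 0.0229, and the adjusted p of 0.392 in edgeR did not pass 0.05. DESeq2 gave an adjusted p of 0.351, and over 12 alternatives the adjusted p ran from 0.351 to 0.678 and the log2 fold change from 0.44 (without *Hbb*-cKO replicate 1) to 0.84 (without *Hbb*-cKO replicate 3). The difference thus kept its sign and stayed short of the threshold in each setting that was run.

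Genes of the Wnt pathway, which sclerostin blocks, did not pass the test either. The list of 15 holds receptors and Wnt targets, but also Wnt ligands (such as *Wnt16*) and secreted antagonists (such as *Dkk2* and *Wif1*). It is thus wider than the genes through which sclerostin acts. Of the 15, 14 were tested, with none past 0.05 in edgeR or DESeq2 and 2 with an unadjusted p under 0.05, beside 10.1% of all genes. Over the 14 tested genes the median log2 fold change was 0.00, with as many positive as negative values (7 each). Both figures mix these classes of genes. *Dkk2*, another Wnt antagonist, was at 32.4, 33.0 and 32.5 CPM in *Hbb*-cKO and 24.9, 21.04 and 30.3 CPM in WT libraries (log2 fold change 0.36, unadjusted p = 0.0417, adjusted p = 0.469 in edgeR). *Tcf7*, a transcription factor of the Wnt pathway and one of its targets, was at 23.9, 18.5 and 19.9 CPM in *Hbb*-cKO and 14.3, 17.0 and 17.6 CPM in WT libraries (log2 fold change 0.35, unadjusted p = 0.0495, adjusted p = 0.494 in edgeR). *Lrp4*, which presents sclerostin to its targets in bone, was at 44.6, 37.3 and 38.4 CPM in *Hbb*-cKO and 37.1, 30.0 and 51.6 CPM in WT libraries, and was named after its values were seen.

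A list of 20 other osteocyte and bone lining cell genes, of which 17 were tested, held none past 0.05 in edgeR, 3 with an unadjusted p under 0.05 (beside 10.1% of all genes) and 1 past 0.05 in DESeq2 (beside 1.45% of all genes), with a median log2 fold change of 0.01. That gene was *Gja1*, encoding connexin 43, the gap junction protein that couples osteocytes and is also made by osteoblasts, chondrocytes and vessels. It was at 104, 94.2 and 92.2 CPM in *Hbb*-cKO and 140, 141 and 141 CPM in WT libraries (log2 fold change -0.54, standard error 0.10). Its adjusted p was 0.148 in edgeR and 0.00225 in DESeq2, and over 12 alternatives it ran from 0.00225 to 0.597. *Pth1r*, the receptor of parathyroid hormone, was at 234, 323 and 253 CPM in *Hbb*-cKO and 192, 231 and 162 CPM in WT libraries (adjusted p = 0.425 at a log2 fold change of 0.47), and hypertrophic chondrocytes also express it. *Mmp14*, a membrane-bound collagenase that osteocytes need for their processes in mice, was at 863, 750 and 744 CPM in *Hbb*-cKO and 640, 650 and 574 CPM in WT libraries (log2 fold change 0.34, adjusted p = 0.434 in edgeR).

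Across the 9 genes, none was called in *Hbb*-cKO against WT by edgeR or by DESeq2. Over all genes, edgeR called 18 of 17175 (0.105%) and DESeq2 called 1.45%, so that a count of 0 among 9 does not set these genes apart. The number called by edgeR was 6, 2 and 1 without *Hbb*-cKO replicate 2, *Hbb*-cKO replicate 3 and WT replicate 1, and 39 without WT replicate 3, with none of the 9 among them in any of these fits. An unadjusted p under 0.05 was reached by 1 of the 9 (*Sost*), beside 10.1% of all genes, and 1 of the 9 had *Hbb*-cKO libraries entirely above WT libraries, beside 8.70% of all genes, while none had them entirely below, beside 8.96% (17.7% in either direction). Log2 fold changes were positive for 6 and negative for 3 of the genes, with a median of 0.08 beside -0.01 over all genes, of which 47.5% were positive. The negative ones were *Bglap*, *Bglap2* and *Mepe*. Intervals were narrow enough to limit a difference to less than 1.5-fold either way only for *Fam20c* and *Sp7*, and those of *Bglap*, *Bglap2* and *Mepe* reached beyond 4-fold.

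**Figure D3:**
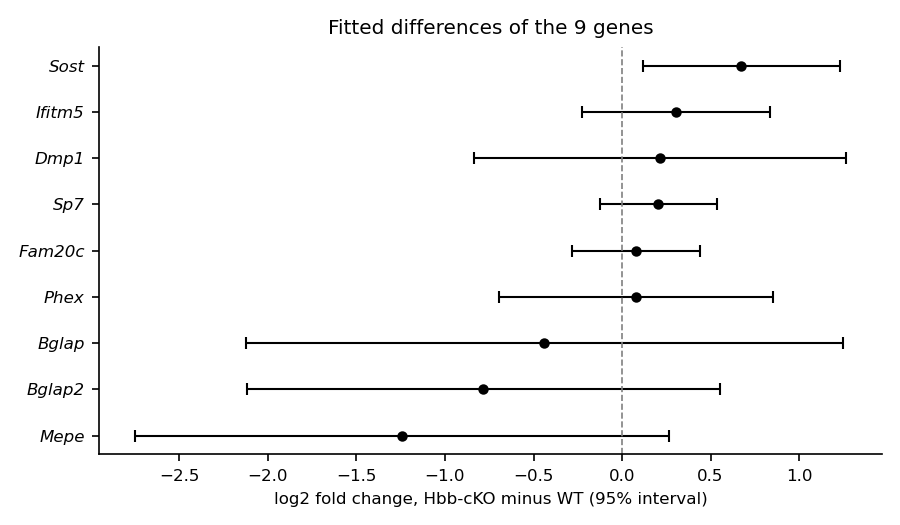
Fitted log2 fold change of each of the 9 genes (*Hbb*-cKO minus WT, edgeR), with its 95% interval, ordered by size; the dashed line marks no difference. The interval of *Sost* (0.12 to 1.23) is the only one that leaves out 0, before any adjustment for the number of genes, and those of *Bglap*, *Bglap2* and *Mepe* are the widest.

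Several of the genes stood out by their spread between libraries of the same group. The within-group standard deviation of log2 CPM was 1.04 for *Bglap*, 0.845 for *Bglap2*, 0.857 for *Mepe* and 0.687 for *Dmp1*, where the median over all tested genes was 0.228. Only 1.85%, 3.45%, 3.28% and 6.18% of all tested genes had a larger one. *Phex* (0.521), *Ifitm5* (0.346) and *Sost* (0.283) were intermediate, and *Fam20c* (0.219) and *Sp7* (0.185) were below the median. The highest library was 8.75 times the lowest for *Mepe*, 6.39 times for *Bglap* and 5.92 times for *Bglap2*, against 1.49 times for *Sp7*. The matrix protein genes varied more than the transcription factor and the kinase, but depth differed as well, and counting error adds to the spread at low counts. *Mepe* had 5 to 38 counts per library and *Bglap2* 50 to 257, against 1478 to 2328 for *Sp7*. *Dmp1* had 781 to 2347 counts. The part of depth in these spreads was not tested.

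The libraries were ordered alike within some sets of the genes and not across all 9. *Bglap*, *Bglap2* and *Mepe* shared an order, and *Sp7* and *Ifitm5* shared another. *Hbb*-cKO replicate 1 was the highest library for 6 genes (*Sp7*, *Dmp1*, *Phex*, *Ifitm5*, *Sost* and *Fam20c*), WT replicate 3 for the other 3 (*Bglap*, *Bglap2* and *Mepe*), and *Hbb*-cKO replicate 2 was the lowest for 5 (*Bglap*, *Bglap2*, *Dmp1*, *Phex* and *Mepe*). WT replicate 3 was the lowest library for *Sost* and *Fam20c* and the next lowest for *Sp7* and *Ifitm5*. Summed, the 9 genes gave 486, 265 and 342 CPM in *Hbb*-cKO and 298, 341 and 359 CPM in WT libraries. Set against *Sp7*, whose counts varied little, *Dmp1* counts were 1.01, 0.395 and 0.887 in *Hbb*-cKO and 0.662, 0.677 and 1.00 in WT libraries. *Bglap* and *Bglap2* together were 0.283, 0.0729 and 0.137 of the *Sp7* counts in *Hbb*-cKO and 0.201, 0.221 and 0.465 in WT libraries. *Hbb*-cKO replicate 2 was thus low in *Dmp1* and osteocalcin but not in *Sp7*. Which cells made the *Sp7* RNA was not tested, so these ratios are no measure of osteoblasts alone.

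Markers of other cells of the joint moved with these libraries. The summed level of 10 osteoclast genes was 1736, 674 and 1034 CPM in *Hbb*-cKO and 1081, 1389 and 1459 CPM in WT libraries, so that *Hbb*-cKO replicate 1 was the highest and *Hbb*-cKO replicate 2 the lowest for them as well. The sum of 10 chondrocyte genes ran the other way, at 18310, 60060 and 44020 CPM in *Hbb*-cKO and 40600, 45430 and 35120 CPM in WT libraries. The sum of 8 hypertrophic chondrocyte genes, which include *Ibsp*, *Spp1*, *Alpl* and *Pth1r* of the lists above, ranged from 2540 to 3161 CPM in *Hbb*-cKO and from 2575 to 3009 CPM in WT libraries. This narrow range hides opposite orders. *Ibsp*, *Spp1*, *Mmp13* and *Alpl* were higher in *Hbb*-cKO replicate 1 than in replicate 2, and *Col10a1*, *Ihh*, *Panx3* and *Pth1r* were lower. *Col10a1* was at 858, 1325 and 839 CPM in *Hbb*-cKO and 1502, 784 and 539 CPM in WT libraries. The sum of 10 skeletal muscle genes was highest in WT replicate 3, at 23690 to 32590 CPM in *Hbb*-cKO and 29360 to 47050 CPM in WT libraries. These 4 lists held none past 0.05 in edgeR or DESeq2, and 0, 0, 1 and 4 genes with an unadjusted p under 0.05, beside 10.1% of all genes. Their part in the levels of the 9 genes was not tested. The sums for blood, vessels and tendon are given for *Sost*, whose groups did not overlap. The sum of 10 neutrophil genes was 128, 27.9 and 108 CPM in *Hbb*-cKO and 39.2, 26.6 and 19.3 CPM in WT libraries. That of 6 endothelial genes was 586 to 673 CPM in *Hbb*-cKO and 465 to 549 CPM in WT, and that of 6 tendon genes 4273 to 4587 CPM in *Hbb*-cKO and 3636 to 4783 CPM in WT. That of 8 erythroid genes, globins and thus the targeted *Hbb-bs* and *Hbb-bt* included, was 8807 to 11750 CPM in *Hbb*-cKO and 13460 to 36860 CPM in WT. The neutrophil, endothelial, tendon and erythroid lists held none past 0.05 in edgeR. They held 8, 3, 1 and 5 genes with an unadjusted p under 0.05, beside 10.1% of all genes. In DESeq2, 2, 0, 0 and 5 of their genes passed 0.05, beside 1.45% of all genes. The part of these lists in the difference of *Sost* was not tested. In tissue counted as a whole, fewer cells of a type and less RNA per cell cannot be told apart. Nor can the cell types that made the RNA of the 9 genes.

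**Figure D4:**
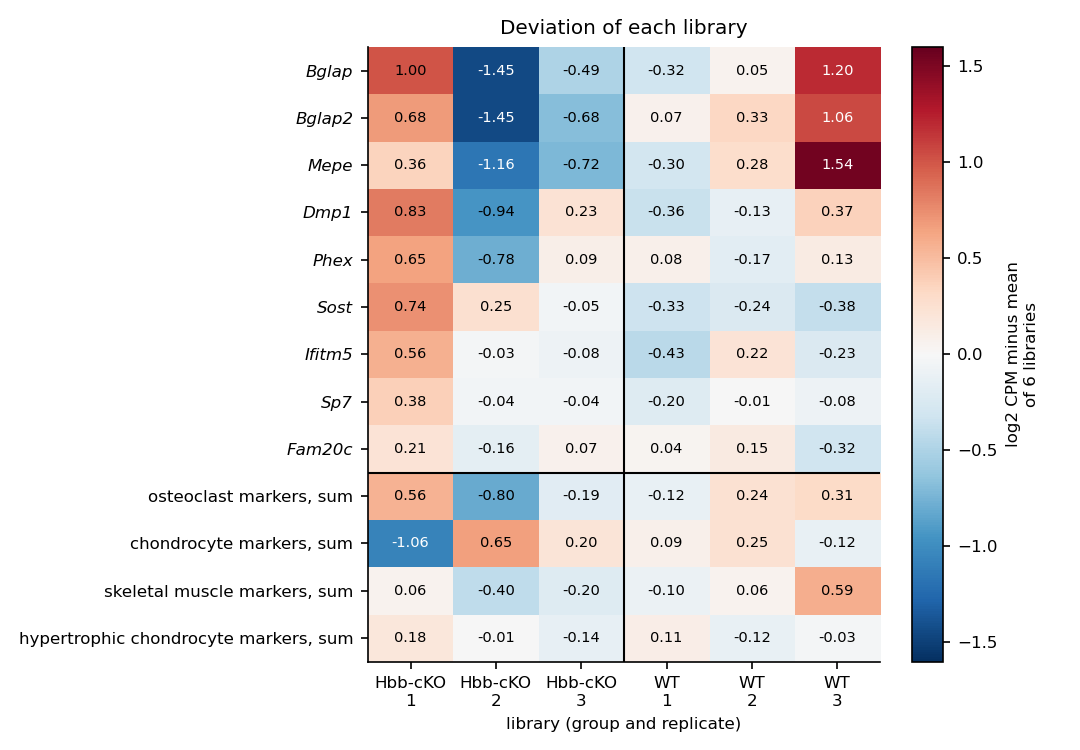
Deviation of each library from the mean of the 6 libraries, as log2 of CPM (with 0.1 added for single genes), for the 9 genes and for the summed markers of 4 other cell types, with the 3 *Hbb*-cKO libraries left of the vertical line and the 3 WT libraries right of it. *Hbb*-cKO replicate 2 is low for *Bglap* (-1.45), *Bglap2* (-1.45), *Mepe* (-1.16), *Dmp1* (-0.94) and the osteoclast sum (-0.80) and high for the chondrocyte sum (0.65), and *Hbb*-cKO replicate 1 shows the opposite signs.

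The genes whose profile over the 6 libraries lay nearest to the average profile of the 9 genes were looked up across the table. Likeness was measured as the root-mean-square difference after each profile was set to mean 0 and standard deviation 1, among genes whose mean log2 CPM was 1 or more. *Ap3m2* (0.0891), *Snx10* (0.102), *Qprt* (0.123), *Fam189a2* (0.127), *Igsf6* (0.186), *Tpsb2* (0.194), *Lcp2* (0.231) and *Gsc* (0.260) came closest. *Snx10*, a sorting nexin that osteoclasts need for resorption in mice, was at 20.3, 12.0 and 14.9 CPM in *Hbb*-cKO and 13.2, 15.6 and 15.9 CPM in WT libraries. *Tpsb2*, a mast cell tryptase, was at 91.2, 56.3 and 65.8 CPM in *Hbb*-cKO and 61.0, 67.6 and 65.1 CPM in WT libraries. The 9 genes themselves lay between 0.385 (*Dmp1*) and 0.933 (*Fam20c*) from their own average. These 8 genes are a description of 6 libraries, and no test was made.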

How the data were processed

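Poly(A) RNA of knee joint cartilaginous tissue at P6 was sequenced by the study, and the authors deposited whole-number counts per gene, not normalized, with 1 column for each of 6 libraries. StringTie, edgeR, HISAT2 2.1.0, fastp 0.19.5 and CASAVA 1.8 appear in the processing notes of the submitters. The build, the strand setting and the counting settings are not stated in the sources used here. Gene positions equalled GENCODE M21 (GRCm38) for 54870 of 55227 identifiers found there, the 9 genes included. Groups follow the labelled genotype. Each pair of libraries differed beyond sampling noise (chi-square per gene 20.2 to 55.2 over 15 pairs).

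The counts were tested with edgeR 4.0.16 on R 4.3.3 (filterByExpr with a minimum count of 10 and total of 15, TMM factors, robust quasi-likelihood fit, Benjamini-Hochberg adjustment over 17175 genes, threshold 0.05). Spreads and likeness used log2 CPM with a prior count of 2, and levels per length the union of exons. Shares were compared by exact permutation tests in R, and their Wilson intervals were made with scipy 1.17.1. Alternatives were DESeq2 1.42.0, RLE factors, a replicate block, 2 other filters, TMM factors that leave out globins, the longest transcript and leaving out each library.

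The 9 genes, the partner lists and the marker lists were chosen with earlier results of these data known. Named were the 9 genes, in each partner list up to 4 genes with the smallest unadjusted p and the most abundant gene, and the 8 nearest profiles. Differences are *Hbb*-cKO minus WT, and intervals on counts cover counting error only. Sequences are from GENCODE M21 and RefSeq, and protein sequences were not used here.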

Additional observations from a re-analysis of the deposited data

How the results depend on the processing

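The count of the 9 genes past 0.05 was 0 under each of 12 alternatives of the fit. The number of genes called over the whole table was 18 and depended on the setting: DESeq2 called 249, edgeR without a filter on low counts 60, and edgeR with a replicate block 4, and it was 1 to 39 when each library was left out in turn. Direction was less stable than the call. Over the libraries left out, *Bglap* ran from -1.36 to 0.15 (positive without WT replicate 3), *Dmp1* from -0.23 to 0.56 and *Phex* from -0.30 to 0.37 (both negative without *Hbb*-cKO replicate 1), and *Fam20c* from -0.045 (without WT replicate 3) to 0.19, with -0.0038 without *Hbb*-cKO replicate 1. *Sost*, *Sp7* and *Ifitm5* stayed positive and *Bglap2* and *Mepe* negative in each setting that kept them (*Mepe* is dropped by a minimum of 1 CPM in 3 libraries). Of the partner genes, *Atf4* ran from -0.13 to 0.094 (without *Hbb*-cKO replicate 3), and *Wif1*, a secreted Wnt inhibitor at -0.01, turned to 0.00080 without a filter and ranged from -0.11 to 0.06 over the libraries left out (0.011, 5.6e-05, 0.058 and 0.040 where it was positive). Under DESeq2, *Gja1* passed 0.05 (adjusted p = 0.00225). The summed osteocalcin copies ran from -1.42 to -0.05 and the difference in the *Bglap* share from 3.60 to 7.81 percentage points over the libraries left out. By the longest transcript, 4 of the 9 genes kept their place in the order of levels. The cause of these shifts was not tested.

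Libraries with the same number did not deviate together (correlations -0.026, -0.108 and -0.029), which gave no ground to pair them by number. With 3 libraries in each group, such correlations cannot exclude a pairing. With the replicate block none of the 9 genes was called, *Phex* was at -0.024 and the summed osteocalcin copies at -0.79. *Mepe* had 5 to 38 counts per library, the lowest depth of the 9 genes.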
